A study of Mus musculus with 14 samples.

Results

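Mouse hepatic stellate cells without p62 were set against wild-type (WT) cells while both were exposed to calcipotriol, a synthetic vitamin D analogue that activates the vitamin D receptor. The comparison used 4 of the 14 RNA libraries of the series, chosen by their labels: 2 of p62KO cells with calcipotriol and 2 of WT cells with calcipotriol. The same genotypes with vehicle, 2 p62KO and 2 WT libraries, served to find genotype differences that appear only with calcipotriol. All 4 groups are cultured lines: the stellate cells came from livers of either genotype and carry SV40 T antigen, which lets them divide without limit. The dose and time of calcipotriol and the number of lines or cultures behind each genotype are not given in the sources used here, so a difference between genotypes is a difference between the lines used, and p-values measure only the spread between libraries, which may be technical. All 12681 genes that passed a filter on low counts were tested.

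Stellate cells store vitamin A in the resting liver and become contractile, collagen-secreting myofibroblasts when the liver is injured. The vitamin D receptor (Vdr) is a nuclear receptor that binds DNA as a partner of retinoid X receptors, and in stellate cells its agonists are known to restrain genes of the TGF-beta programme. The protein p62, encoded by Sqstm1, is a cargo receptor of autophagy and a signalling scaffold that touches NRF2, NF-kB and the amino acid sensing kinase mTORC1.

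The libraries held 26159634 and 29079258 counts for p62KO and 16566069 and 18613062 for WT cells with calcipotriol, and 15207117 to 18938666 with vehicle. The replicates of the p62KO groups lay farther apart than those of WT. With calcipotriol, 8.23% of tested genes differed by at least 2-fold between the p62KO replicates, against 0.741% between the WT replicates. With vehicle these shares were 6.09% in p62KO and 0.00789% in WT cells. Every test used 1 estimate of the spread per gene over all 4 groups, which can understate the spread of the p62KO replicates. On the second principal component, replicate 2 of p62KO with calcipotriol stood at -41.86 and its partner at 5.26. Replicate 1 of p62KO with vehicle stood there at 41.18 and its partner at 14.75. These 2 libraries are called below the libraries that stood apart. On the third component p62KO vehicle replicate 2 lay farthest out (-30.84, against 26.5 for replicate 1). With 2 libraries a group, which of a pair is unusual cannot be told. Counts or medians are also given without the 2 libraries that stood apart, in a fit that leaves 1 library in each p62KO group. The spread in that fit comes from the WT replicates alone. Ribosomal protein genes took 5% and 6.74% of counts in the p62KO and 3.77% and 4.23% in the WT libraries with calcipotriol. Summed CPM (each gene's count relative to the scaled library total) of 15 stellate and myofibroblast markers was 17084 and 24515 in p62KO and 11591 and 13306 in WT cells, most of it from Col1a1, Vim, Acta2, Col1a2 and Sparc. Of the 13 tested, 5 rose, 2 fell (Lhx2 and Reln) and 6 did not pass; Sparc was lower in both p62KO libraries without passing. Pdgfrb, a receptor of mesenchymal cells, stood at 139 and 212 CPM in p62KO and 148 and 106 CPM in WT cells. Of the markers of resting stellate cells or pericytes, Lrat was at 0 in all 4 libraries, Rgs5 at 0.107 CPM or less, and Des and Reln under 1 CPM. Hand2, which rose, stood at 52.4 and 84.6 CPM in p62KO and 12.1 and 10.8 CPM in WT cells. Lhx2 stood at 2.46 and 4.40 CPM in p62KO and 10.6 and 8.33 CPM in WT cells. Cygb stood at 1.97 and 4.08 CPM in p62KO and 1.26 and 0.653 CPM in WT cells. The label thus rests mostly on mesenchymal and myofibroblast genes. Hepatocyte markers summed to at most 0.179 CPM and lymphoid markers to at most 0.218 CPM. Macrophage markers summed to 6.52 and 7.55 CPM in p62KO and 12.2 and 4.85 CPM in WT cells, with 5 of 9 at 0 in all 4 libraries. Endothelial markers summed to 2.16 and 2.54 CPM in p62KO and 8.16 and 9.31 CPM in WT cells, mesothelial markers to 1.14 and 1.68 CPM against 4.08 and 6.04 CPM, and cholangiocyte markers to 5.27 and 8.70 CPM against 2.76 and 2.29 CPM. In each of these last lists 1 member passed the test: the receptor gene Kdr fell, the mesothelin gene Msln fell and the keratin gene Krt19 rose. What these cell types contribute to the results was not tested, and in bulk libraries more cells of a kind and more RNA per cell cannot be told apart.

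Sqstm1 (chromosome 11, 50199366 to 50210827 in mm10) stood at 0.265 and 0.608 CPM in p62KO and 340.3 and 339 CPM in WT cells with calcipotriol. With vehicle the values were 0.835 and 0.211 CPM in p62KO and 318 and 316 CPM in WT cells. The labels of all 8 libraries match the targeted gene, whose log2 fold change with calcipotriol was -9.57 ± 0.489 (standard error, SE). Values of other genes given with a ± are log2 fold changes of p62KO over WT with calcipotriol and their SE, from 2 libraries a group.

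With calcipotriol, 2509 genes (19.8% of those tested) differed between the genotypes at an adjusted p under 0.05, the threshold for every gene said to have passed, risen or fallen: 1300 (10.3%) were higher and 1209 (9.53%) lower in p62KO cells. With vehicle, 1634 genes (12.9%) differed, 881 higher (6.95%) and 753 lower (5.94%). Both settings shared 1120 of these genes, 580 higher and 540 lower in p62KO, and none in opposite directions. The libraries of both genotypes did not overlap in 8233 genes (64.9%), among them all 2509 called with calcipotriol. The 1120 shared genes were 44.6% of the genes called with calcipotriol and 68.5% of those called with vehicle. List counts below stand beside the 19.8% called over all genes with calcipotriol and the 12.9% with vehicle.

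No genotype difference met the test for appearing only with calcipotriol. For that, a gene had to pass with calcipotriol, not pass with vehicle, pass the test of the difference between both genotype differences (the interaction), and be larger with calcipotriol. No gene passed the interaction after adjustment (0%, smallest adjusted p = 0.708 in edgeR's quasi-likelihood test), 677 of 12681 (5.34%) had an unadjusted p under 0.05, and DESeq2 also called 0, with 823 unadjusted. A total of 1389 genes (11%) passed with calcipotriol and not with vehicle, 720 higher and 669 lower in p62KO, but 1365 of them had the same sign with vehicle and 672 had an unadjusted vehicle p under 0.05. Their median absolute log2 fold change was 1.06 with calcipotriol and 0.57 with vehicle, and in the median gene the vehicle change was 0.54 of the calcipotriol change; for the 1120 genes called in both settings that ratio was 0.99. Of the 1389, 201 had a vehicle change under 0.25 of the calcipotriol change, 24 had the opposite sign with vehicle, and 160 had an unadjusted interaction p under 0.05. The interaction had a median SE of 0.37 on the log2 scale, against 0.27 for the genotype difference with calcipotriol, with 2 libraries a group.

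**Figure D1:**
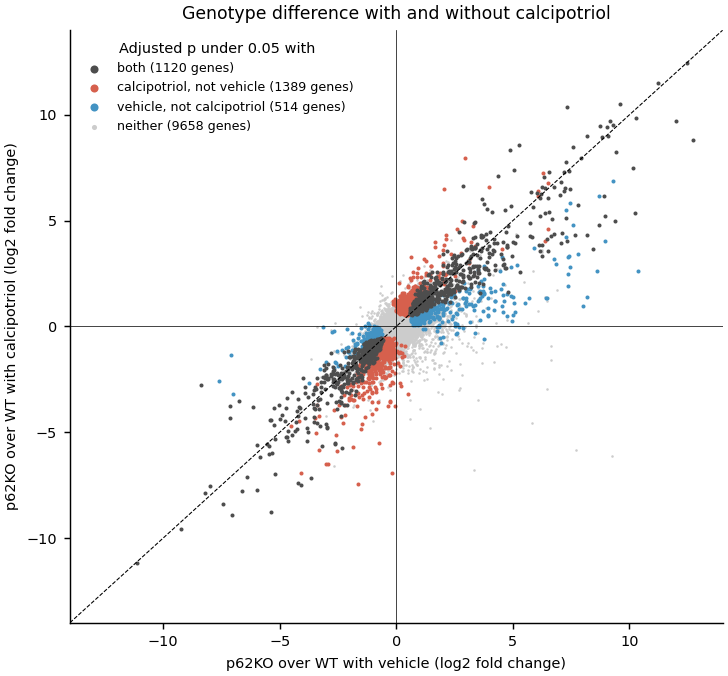
Log2 fold change of p62KO over WT for each of 12681 tested genes, with calcipotriol on the vertical and with vehicle on the horizontal axis, coloured by the setting in which the gene passed. The 1120 genes called in both settings lie in the upper right and lower left only, and most of the 1389 genes called with calcipotriol alone lie on the same side of 0 with vehicle.

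These counts, and the genes behind them, changed when single libraries were left out. In several of those fits, most genes that passed with calcipotriol and not with vehicle were not among the 1389. With all libraries kept, DESeq2 gave 1821 such genes, 1092 of them among the 1389. All groups share 1 estimate of the spread, so leaving out a library changes that estimate as well as its group. What each of these contributed to the counts was not tested. Leaving out WT calcipotriol replicate 1 or 2 took the 2509 to 346 or 272, and leaving out WT vehicle replicate 1 or 2 took it to 1127 or 1165. It was 6052 without p62KO calcipotriol replicate 1, and 5606 without both libraries that stood apart. Without p62KO calcipotriol replicate 1, which leaves that group with the library that stood apart, 1592 genes met the rule for appearing only with calcipotriol, 683 higher and 909 lower. Without p62KO vehicle replicate 2, 2 genes met it, Oasl2 and Ms4a4d (named after their values were seen), and the other 6 such fits and the fit without both libraries that stood apart gave 0. The 1389 became 36 when either WT calcipotriol library was left out, 218 without replicate 2 of the p62KO calcipotriol group and 3587 without its replicate 1. It was 889 and 933 without WT vehicle replicates 1 and 2. In all, 234 genes passed with calcipotriol in every one of the 8 fits that left out 1 library, 103 higher and 131 lower in p62KO. Among the 207 genes chosen for naming that passed, 62 did so in all 8 fits, and each of the other 145 lost its call without 1 or both WT calcipotriol libraries. With vehicle, the 1634 became 243 and 238 without WT vehicle replicates 1 and 2, 841 when replicate 1 of p62KO with vehicle was left out, 872 and 873 without WT calcipotriol replicates 1 and 2, and 3625 and 3635 without p62KO calcipotriol replicates 1 and 2. The 1120 genes called in both settings ranged over these fits between 232 and 2465. A group left with 1 library is assumed in these fits to vary like the others. Calls over all genes fell or rose in the same fits. List counts given below for fits that left out a library are therefore not read as results about the lists.

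Members of the list of the vitamin D receptor and its targets moved in both directions. Their calls compare the genotypes and do not measure the response to calcipotriol. Of 14 tested members of the list, 3 rose, 3 fell and 8 did not pass (median log2 fold change -0.39, against -0.01 over all tested genes), and with vehicle 3 rose and 2 fell (median -0.37). Vdr itself (chromosome 15, 97854425 to 97910630) stood at 19.6 and 26.0 CPM in p62KO and 30.3 and 30.1 CPM in WT cells with calcipotriol, and at 10.2 and 15.5 CPM in p62KO and 15.3 and 15.6 CPM in WT cells with vehicle. The p62KO libraries lay below the WT libraries with calcipotriol, by a log2 fold change of -0.40 ± 0.249 that did not pass (adjusted p = 0.261). Cyp24a1 (chromosome 2, 170482708 to 170497145), the vitamin D 24-hydroxylase and the best known target of the receptor, stood at 32.9 and 23.9 CPM in p62KO and 65.4 and 86.0 CPM in WT cells with calcipotriol. With vehicle it stood at 1.83 and 5.12 CPM in p62KO and 9.85 and 8.51 CPM in WT cells. Every p62KO library lay below every WT library of its setting, and every calcipotriol library lay above every vehicle library. Its genotype difference was -1.41 ± 0.385 with calcipotriol (adjusted p = 0.0366) and -1.40 with vehicle (adjusted p = 0.0633), and the difference between these was -0.01 (unadjusted p = 0.986). The call with calcipotriol was lost without p62KO replicate 2 of that group and without any of the 4 WT libraries.

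Thbd, the gene of the anticoagulant receptor thrombomodulin, fell: it stood at 31.7 and 28.6 CPM in p62KO and 138 and 157 CPM in WT cells with calcipotriol (-2.29 ± 0.4), and its call was lost without WT calcipotriol replicate 2. With vehicle it stood at 69.0 and 25 CPM in p62KO and 165 and 162 CPM in WT cells. Spp1, which encodes the secreted phosphoprotein osteopontin, fell in all 8 leave-one-out fits, at 189 and 191 CPM in p62KO and 498 and 836 CPM in WT cells (-1.81 ± 0.252). With vehicle Spp1 stood at 191 and 171 CPM in p62KO and 963 and 958 CPM in WT cells, a larger change of -2.41. The lipolysis inhibitor gene G0s2 had 0.758 and 1.97 CPM in p62KO cells and no counts in WT cells, at least 16.5-fold higher against a limit of 3 counts over the WT group. The cell cycle inhibitor gene Cdkn1a rose (1.08 ± 0.289, against a change of 1.63 with vehicle), as did the retinoid receptor gene Rxrb (0.78 ± 0.207). Both lost their call in 5 of the 8 fits. The list's count of 6 was 2 and 1 without WT calcipotriol replicates 1 and 2, and 3 without p62KO calcipotriol replicate 2 or either WT vehicle library. Without both libraries that stood apart the median of the list was -0.75.

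**Figure D2:**
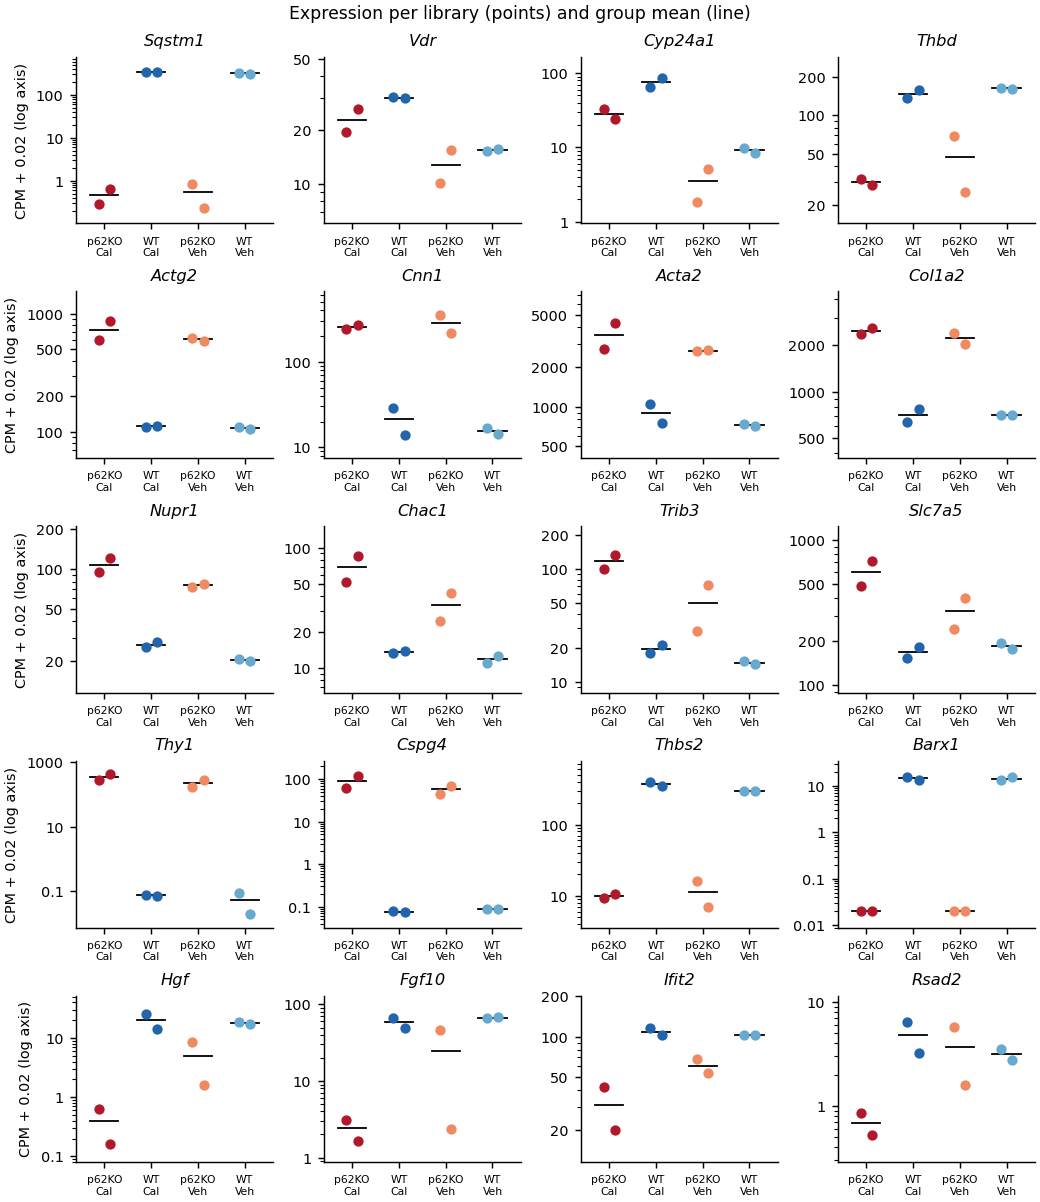
CPM plus 0.02 on a log axis for 20 genes, 1 point per library and a line at the group mean, with p62KO left of WT and calcipotriol left of vehicle. Sqstm1 is under 1 CPM in all p62KO libraries, Cyp24a1 is lower in p62KO in both settings, Acta2 and Nupr1 are higher in p62KO in both, and Hgf and Rsad2 are lowest in the p62KO calcipotriol libraries.

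Contractile genes of myofibroblasts were higher in p62KO cells. Of 22 tested, 12 rose, none fell and 10 did not pass (median 1.07), and with vehicle 9 rose and none fell (median 0.82). Acta2, which encodes alpha smooth muscle actin, stood at 2759.7 and 4284 CPM in p62KO and 1053 and 747 CPM in WT cells with calcipotriol, with no overlap (1.97 ± 0.263). With vehicle it stood at 2632 and 2691 CPM in p62KO and 739 and 713 CPM in WT cells. The gamma smooth muscle actin gene Actg2 stood at 596 and 869 CPM in p62KO and 111 and 112 CPM in WT cells (2.72 ± 0.223). Calponin (Cnn1), an actin-binding protein, stood at 244 and 271 CPM in p62KO and 28.9 and 14 CPM in WT cells (3.59 ± 0.379). The kinase gene Mylk, whose product phosphorylates myosin light chain, stood at 37.2 and 27.2 CPM in p62KO and 2.47 and 2.34 CPM in WT cells (3.74 ± 0.41), and the actin-binding transgelin (Tagln) at 1489 and 2250.2 CPM in p62KO and 489 and 403 CPM in WT cells (2.07 ± 0.262). These 5 passed in all 8 leave-one-out fits. The actin genes have closely similar coding sequences, and how reads shared between them were counted is not given in the sources used here.

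Among the contractile genes, 3 passed with calcipotriol and not with vehicle: Smtn, Srf and Flna. Smoothelin (Smtn), a cytoskeletal protein of smooth muscle, stood at 74.5 and 135 CPM in p62KO and 42.0 and 47.3 CPM in WT cells with calcipotriol (1.23 ± 0.269), and its vehicle change was 0.35. Srf, the transcription factor that binds CArG boxes of smooth muscle genes, stood at 159 and 289.6 CPM in p62KO and 95.5 and 119.9 CPM in WT cells (1.06 ± 0.284), with a vehicle change of 0.18. Filamin A (Flna), an actin cross-linker, changed by 0.87 ± 0.241 with calcipotriol and 0.12 with vehicle. In all 3 the p62KO calcipotriol replicate that stood apart was the highest library, and the unadjusted interaction p was 0.046, 0.055 and 0.0533 (adjusted p at least 0.708, edgeR). The count of 12 was 6 and 5 without WT calcipotriol replicates 1 and 2.

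The CArG box was searched in the 250 bases upstream of RefSeq start sites (GRCm38.p6, both strands). It was found in 5 of 20 contractile genes with a promoter entry (25%), against 1.62% of 27025 genes with an entry, tested or not. The list was made of contractile genes, so this share describes the list and not the genotype difference. Among the 10 called members with an entry it was found in Myl9 and Srf. Cnn2 and Myl6 held it without passing, and Actc1 held it and was too low to be tested. Myl9, a regulatory light chain of myosin, stood at 416 and 905 CPM in p62KO and 189 and 184 CPM in WT cells (1.82 ± 0.327). Both windows are shown because they belong to the called members that hold the motif, and capitals mark each match; the window of Srf holds 2. Myl9 is read from chr2:156775263-156775352 on the plus strand and Srf from chr17:46556175-46556264 on the minus strand.
Myl9: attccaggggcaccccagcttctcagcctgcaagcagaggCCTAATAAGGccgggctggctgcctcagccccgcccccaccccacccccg
Srf: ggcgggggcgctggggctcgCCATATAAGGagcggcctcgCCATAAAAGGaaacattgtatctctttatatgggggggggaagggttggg

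Matrix genes moved in both directions. Of 31 tested collagens and elastic fibre genes, 12 rose, 1 fell and 18 did not pass (median 0.94), against 10 higher and 1 lower with vehicle (median 0.35). Col1a2, a chain of type I collagen, stood at 2361 and 2608 CPM in p62KO and 637 and 768 CPM in WT cells with calcipotriol (1.82 ± 0.193). Its partner chain Col1a1 stood at 4478 and 8028 CPM in p62KO and 2279 and 2693 CPM in WT cells (1.33 ± 0.273). With vehicle Col1a1 stood at 3061 and 3386 CPM in p62KO and 2256 and 2325 CPM in WT cells, a change of 0.49 that did not pass (adjusted p = 0.259), and the unadjusted interaction p was 0.0565. Among minor collagens, Col5a3 stood at 25.8 and 25.8 CPM in p62KO and 3.96 and 2.83 CPM in WT cells (2.92 ± 0.251), and Col18a1, a basement membrane collagen, at 15.6 and 17.7 CPM in p62KO and 2.81 and 2.12 CPM in WT cells (2.75 ± 0.288). Col14a1, which coats collagen fibrils, was at least 100-fold higher, with 9.32 and 7.51 CPM in p62KO cells and no counts in WT cells. The elastic fibre gene Fbln5 was the member that fell, at 182 and 235 CPM in p62KO and 426 and 400.2 CPM in WT cells (-0.98 ± 0.187). The list's count of 13 was 8 and 6 without WT calcipotriol replicates 1 and 2.

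Matricellular proteins and proteoglycans rose in 9 of 24 cases and fell in 4 (median 0.79), with 9 higher and 5 lower with vehicle (median 0.54). Thbs2, an inhibitor of angiogenesis, stood at 9.21 and 10.7 CPM in p62KO and 401 and 350.5 CPM in WT cells with calcipotriol (-5.24 ± 0.382). Tenascin C (Tnc) also fell, at 134 and 185 CPM in p62KO and 418 and 380.3 CPM in WT cells (-1.33 ± 0.217). Cthrc1, a secreted protein of injured and fibrotic tissue, was at least 217-fold higher, with 21.0 and 15.6 CPM in p62KO cells and no counts in WT cells. The collagen-binding proteoglycan Fmod rose (2.24 ± 0.368), and so did periostin (Postn), a matrix protein of fibrotic tissue, at 304 and 217 CPM in p62KO and 108 and 107 CPM in WT cells (1.28 ± 0.249). Perlecan (Hspg2) passed with calcipotriol and not with vehicle, at 899 and 2102 CPM in p62KO and 612 and 605 CPM in WT cells against 598 and 818 CPM in p62KO and 703 and 754 CPM in WT cells with vehicle. In edgeR's fit the unadjusted interaction p of Hspg2 was 0.0257 (adjusted p = 0.708). Its excess lay mostly in p62KO calcipotriol replicate 2, and the call was lost without that library. The count of 13 for the list was 4 without either WT calcipotriol library.

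Among 30 tested remodelling enzymes and inhibitors, 7 rose and 6 fell (median 0.10), and with vehicle 4 rose and 6 fell (median 0.11). The matrix proteases Mmp10 and Mmp13 fell: Mmp10, a stromelysin, stood at 3.26 and 2.43 CPM in p62KO and 56.9 and 83.2 CPM in WT cells (-4.62 ± 0.706), and the collagenase Mmp13 at 14 and 6.41 CPM in p62KO and 184 and 293 CPM in WT cells (-4.54 ± 0.81). The proteoglycan-cleaving Adamts1 and Adamts5 fell by 1.99 and 2.53 on the log2 scale. Rises were seen in P4ha3, a prolyl hydroxylase of collagen (2.83 ± 0.239), in the cross-linking enzyme genes Loxl3 (1.65 ± 0.264) and Loxl1 (1.26 ± 0.337), and in the protease inhibitor Timp1 (0.69 ± 0.203). The collagen chaperone Serpinh1 stood at 3451 and 5692 CPM in p62KO and 1919 and 2468 CPM in WT cells (1.06 ± 0.299), with a vehicle change of 0.12. The count of 13 was 6 and 4 without WT calcipotriol replicates 1 and 2 and 8 without either WT vehicle library.

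Genes of the ATF4 and amino acid response made up the pathway list with the most genes that rose. This transcription factor is made when amino acids run short or the endoplasmic reticulum is stressed, and it turns on transporters, serine synthesis and tRNA charging. Of 30 tested members, 21 rose, none fell and 9 did not pass (median 1.26); with vehicle 16 rose and none fell (median 0.82). The stress-induced chromatin protein gene Nupr1 stood at 94.0 and 120.2 CPM in p62KO and 25.4 and 27.7 CPM in WT cells with calcipotriol (2.01 ± 0.191), and the pseudokinase gene Trib3 at 100.2 and 133 CPM in p62KO and 18.2 and 21.4 CPM in WT cells (2.56 ± 0.398). Chac1, which degrades glutathione, stood at 52.4 and 85.7 CPM in p62KO and 13.4 and 14 CPM in WT cells (2.33 ± 0.322). With vehicle Chac1 stood at 24.8 and 42.1 CPM in p62KO and 11.1 and 12.6 CPM in WT cells. Transporters of amino acids rose: Slc1a5 (1.55 ± 0.194), Slc7a11 (1.78 ± 0.378), Slc3a2 (1.04 ± 0.211) and Slc7a5 (1.84 ± 0.291). Slc7a5, the large neutral amino acid carrier, stood at 479 and 720.5 CPM in p62KO and 153 and 183 CPM in WT cells, against 245 and 401 CPM in p62KO and 194 and 179 CPM in WT cells with vehicle, where it did not pass. In edgeR's fit the unadjusted interaction p of Slc7a5 was 0.0294 (adjusted p = 0.708).

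Enzymes of serine and one-carbon metabolism rose as well, with Phgdh at 1.90 ± 0.262, Psph at 1.13 ± 0.27, the mitochondrial Mthfd2 at 1.40 ± 0.188 and Aldh1l2 at 1.30 ± 0.255. The asparagine synthetase Asns (1.42 ± 0.293) and the tRNA synthetases Gars (1.22 ± 0.182) and Sars (1.04 ± 0.182) rose with them. Atf4 itself rose in its RNA, at 641 and 562 CPM in p62KO and 313 and 322 CPM in WT cells (0.92 ± 0.172), and so did Atf5 (1.68 ± 0.372) and the stress hormone gene Gdf15 (2.03 ± 0.418). Among 21 chaperones and XBP1 targets of the endoplasmic reticulum, 2 rose, Herpud1 (1.13 ± 0.166) and the stress sensor gene Ern1 (0.95 ± 0.266). The chaperone Hsp90b1 (-1.35 ± 0.301) and Dnajc3 (-0.77 ± 0.229) fell. Hsp90b1 lies on chromosome 10, whose median log2 fold change was -0.71. In all, 4 of the 21 were called (median 0.06), where 19.8% over all genes is the background. This count of 4 was 1 with chromosome medians removed, 0 without either WT calcipotriol library, 2 without either WT vehicle library and 13 without p62KO calcipotriol replicate 1. The count of 21 for the ATF4 list was 5 and 4 without WT calcipotriol replicates 1 and 2, and between 18 and 24 in the other fits that left out 1 library. Nupr1 and Slc1a5 passed in all 8.

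The letters TGATGNAA, the core of the element that ATF4 binds with C/EBP partners, were searched in the same 250 upstream bases on both strands. They occurred in 8 of 25 list members with a promoter entry (32%), against 3.91% of all 27025 genes with an entry, tested or not. The list was made of genes of the ATF4 response, so this share describes the list and not the genotype difference. The called members that held them were Chac1, Asns, Slc7a11, Nupr1, Vldlr, Pck2 and Gars, 7 of 18, and Atf3 held them without passing. Vldlr, a receptor of the LDL receptor family, changed by 1.62 ± 0.238. Windows are shown for the 3 called members with a match that had the smallest p with calcipotriol. Capitals mark the match, which is on the opposite strand and so reads TTGCATCA here. The windows are chr7:126625533-126625620 on the minus strand for Nupr1, chr2:119351009-119351096 on the plus strand for Chac1 and chr19:27216780-27216867 on the plus strand for Vldlr. A match in these windows describes letters and not binding.
Nupr1: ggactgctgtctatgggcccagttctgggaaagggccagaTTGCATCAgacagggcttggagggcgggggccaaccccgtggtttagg
Chac1: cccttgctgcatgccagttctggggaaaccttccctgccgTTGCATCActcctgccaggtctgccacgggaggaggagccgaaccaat
Vldlr: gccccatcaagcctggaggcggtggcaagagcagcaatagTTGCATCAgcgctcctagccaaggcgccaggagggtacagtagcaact

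Genes that mark kinds of mesenchymal cell moved both ways, and a few by very large folds. Of 20 tested members of the stellate, pericyte and fibroblast identity list, 9 rose, 5 fell and 6 did not pass (median 1.07), and with vehicle 9 rose and 2 fell (median 1.31). Thy1, a surface protein of portal fibroblasts, stood at 287 and 417 CPM in p62KO and 0.0574 and 0.0544 CPM in WT cells, a ratio of 6332 (95% counting interval 1753 to 52288). Cspg4 (NG2), a proteoglycan of pericytes, stood at 63.3 and 116 CPM in p62KO and 0.0574 and 0.0544 CPM in WT cells, a ratio of 1620 (448 to 13383). Endoglin (Eng), a co-receptor of the TGF-beta family, stood at 146 and 265 CPM in p62KO and 1.61 and 1.03 CPM in WT cells (7.28 ± 0.396). Mcam, an adhesion molecule of perivascular cells (3.68 ± 0.361), and Cd34 (5.36 ± 0.731) rose too. Pdgfra, a receptor of fibroblasts, fell: it stood at 8.98 and 10.1 CPM in p62KO and 53.1 and 54.3 CPM in WT cells with calcipotriol (-2.49 ± 0.494). With vehicle Pdgfra stood at 34.5 and 9.29 CPM in p62KO and 62.4 and 62.3 CPM in WT cells, where p62KO replicate 1 lay nearer to WT. The count of 14 was 6 without either WT calcipotriol library, and 9 without replicate 2 of p62KO with calcipotriol or either WT vehicle library.

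Developmental transcription factors were the pathway list with the most genes that fell. Of 37 tested, 7 rose and 13 fell (median -0.46), and with vehicle 7 rose and 12 fell (median -0.42). Barx1, a homeobox gene, had no counts in p62KO cells and 15.5 and 13.5 CPM in WT cells, at least 262-fold lower. Ebf3 stood at 0.114 and 0.215 CPM in p62KO and 31.1 and 32.9 CPM in WT cells (-7.54 ± 0.563), and Gata4, known in mouse to hold back stellate cell activation, at 7.20 and 6.33 CPM in p62KO and 25.8 and 24.9 CPM in WT cells (-1.91 ± 0.223). Rises included Prrx2 (2.80 ± 0.359) and Tbx20 (3.98 ± 0.537). Of 22 integrins and cadherins, 6 rose and 2 fell (median 0.47); P-cadherin (Cdh3) stood at 80.9 and 128 CPM in p62KO and 1.44 and 1.14 CPM in WT cells (6.33 ± 0.383). The transcription factor count of 20 was 6 and 7 without WT calcipotriol replicates 1 and 2 and 13 without either WT vehicle library, and that of 8 for integrins and cadherins was 3 without either WT calcipotriol library.

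Growth factors moved both ways. Of 38 tested growth factors, binding proteins and receptors, 6 rose and 8 fell (median -0.19), and with vehicle 6 rose and 5 fell. Over all genes 19.8% were called with calcipotriol. Hgf, the hepatocyte growth factor that stellate cells secrete, stood at 0.606 and 0.143 CPM in p62KO and 25.3 and 14.3 CPM in WT cells with calcipotriol (-5.71 ± 0.87). With vehicle Hgf stood at 8.40 and 1.58 CPM in p62KO and 19 and 17.4 CPM in WT cells, a change of -1.86 that did not pass. The difference between these changes was -3.85, with an unadjusted p of 0.00639 and an adjusted p of 0.708 (edgeR). Fgf10, a ligand for epithelial cells, stood at 3.11 and 1.65 CPM in p62KO and 67.1 and 50 CPM in WT cells with calcipotriol (-4.62 ± 1.09). With vehicle the 2 p62KO libraries of Fgf10 were split, at 46.7 and 2.32 CPM, against 66.9 and 68.0 CPM in WT cells. Igf2 (-5.88 ± 0.895) and the stem cell factor gene Kitl (-2.41 ± 0.429) also fell with calcipotriol and did not pass with vehicle (-2.53 and -1.23). Of the insulin-like growth factor binding proteins, Igfbp2 rose and Igfbp6 fell in both settings. With calcipotriol Igfbp2 stood at 51.9 and 100.3 CPM in p62KO and 0.976 and 0.381 CPM in WT cells. Igfbp6 stood at 0.947 and 1.90 CPM in p62KO and 45.5 and 43.2 CPM in WT cells. Igfbp7 (11909 and 19265 raw counts in p62KO, 2722 and 1126 in WT cells) and Igfbp5 (53 and 59 against 2 and 3) also rose with calcipotriol. Hgf, Igf2, Igfbp2 and Igfbp6 passed in all 8 leave-one-out fits. The list's count of 14 was 6 and 5 without WT calcipotriol replicates 1 and 2 and 9 without p62KO calcipotriol replicate 2.

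Of 29 TGF-beta and BMP genes, 3 rose and 5 fell (median 0.06), against 4 and 3 with vehicle (median 0.15). Over all genes 19.8% were called with calcipotriol. The activin subunit genes parted: Inhba stood at 95.7 and 129.9 CPM in p62KO and 31.9 and 35.7 CPM in WT cells (1.74 ± 0.204), and Inhbb at 4.77 and 5.76 CPM in p62KO and 19.4 and 20.7 CPM in WT cells (-1.93 ± 0.239). Fstl3, which binds and blocks activin, rose (2.27 ± 0.228), as did the feedback inhibitor Pmepa1 (1.37 ± 0.241), while Bmp4 fell (-1.46 ± 0.215). Betaglycan (Tgfbr3), a co-receptor, fell with calcipotriol (-2.63 ± 0.517) and did not pass with vehicle (-0.98). Tgfb1 stood at 27.3 and 36.2 CPM in p62KO and 21.0 and 19.4 CPM in WT cells and did not pass (0.65 ± 0.205, adjusted p = 0.0553). Of 30 Wnt pathway genes, 6 rose and 5 fell (median -0.05), led by the secreted Wnt inhibitor Sfrp1 at 0.682 and 0.680 CPM in p62KO and 46.9 and 21.5 CPM in WT cells (-5.64 ± 0.717). The count of 8 for TGF-beta and BMP genes was 4 and 3 without WT calcipotriol replicates 1 and 2 and 15 without p62KO calcipotriol replicate 1, and that of 11 for Wnt genes was 3 and 2 without the same WT libraries and 7 without replicate 2 of p62KO with calcipotriol or either WT vehicle library.

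Some interferon-induced genes were lower in p62KO cells with calcipotriol, while the p62KO vehicle libraries lay far apart. Of 30 tested, 1 rose and 6 fell (median -0.94), while with vehicle 1 rose and 1 fell (median 0.13). With calcipotriol, 19.8% of all tested genes were called. Rsad2, which encodes the antiviral protein viperin, stood at 0.833 and 0.501 CPM in p62KO and 6.32 and 3.21 CPM in WT cells with calcipotriol (-2.83 ± 0.663). With vehicle Rsad2 stood at 5.69 and 1.58 CPM in p62KO and 3.53 and 2.75 CPM in WT cells, and its interaction had an unadjusted p of 0.0085. The RNA-binding effector genes Ifit2 (-1.81 ± 0.318) and Ifit3 (-2.22 ± 0.593), the RNA sensor Ifih1 (-1.37 ± 0.24), Oasl2 (-3.10 ± 0.772) and Parp14 (-1.93 ± 0.5) also fell, and Ifi27l2a rose (2.06 ± 0.291). Relative to WT calcipotriol cells, the list's median (log2 of CPM plus 1) stood at -0.66 and -0.72 in the p62KO calcipotriol libraries and at 0.66 and -1.06 in p62KO vehicle replicates 1 and 2. The p62KO vehicle replicates thus lay on opposite sides of 0. The count of 7 was 1 without either WT calcipotriol library, 3 without replicate 2 of p62KO with calcipotriol and 17 without either p62KO vehicle library. Without both libraries that stood apart the median log2 fold change of the list with calcipotriol was -0.84.

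Of 24 cytokines, chemokines and NF-kB targets, 1 rose and 3 fell (median 0.05), while with vehicle 7 rose and 2 fell (median 1.63). Over all genes 19.8% were called with calcipotriol and 12.9% with vehicle. Il1rl1, the receptor of interleukin-33, stood at 0.909 and 0.608 CPM in p62KO and 47.1 and 52.7 CPM in WT cells with calcipotriol (-6.03 ± 0.286) and fell by 5.45 on the log2 scale with vehicle. The chemokine Cx3cl1 stood at 9.96 and 12.3 CPM in p62KO and 1.38 and 1.20 CPM in WT cells (3.11 ± 0.438), and Ptgs2, the inducible cyclooxygenase, at 455 and 269 CPM in p62KO and 888 and 1039 CPM in WT cells (-1.41 ± 0.337). Relative to WT calcipotriol cells the list's median was 1.51 and 0.16 in p62KO vehicle replicates 1 and 2, so the vehicle difference lay mostly in replicate 1. The count of 4 was 2 without WT calcipotriol replicate 2, 9 without p62KO calcipotriol replicate 1 and 7 without either p62KO vehicle library.

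Among genes with at least 5 CPM in the higher group, the largest rises with calcipotriol were in Thy1, Cthrc1, Cspg4, Col14a1, Rem1, Gpr141, Ctsc, Mgll, Jph2 and Fam132b. Ctsc, a lysosomal protease, stood at 29.1 and 20 CPM in p62KO and 0 and 0.0544 CPM in WT cells, a ratio of 874 (157 to 34561). Mgll, the lipase of monoacylglycerols, stood at 50 and 55.9 CPM in p62KO and 0.172 and 0.0544 CPM in WT cells (8.81 ± 0.466), and Jph2, which tethers the sarcoplasmic reticulum to the plasma membrane in muscle, at 78.6 and 124 CPM in p62KO and 0.919 and 0.218 CPM in WT cells (7.48 ± 0.572). Rem1, a small GTPase of the RGK family, had no counts in WT cells and was at least 64.5-fold higher, and Fam132b changed by 7.34 ± 0.639. The receptor gene Gpr141 stood at 41.3 and 15.6 CPM in p62KO and 0 and 0.0544 CPM in WT cells, and with vehicle its p62KO libraries held 2.66 and 49.6 CPM. All 10 except Gpr141, which lost its call without either WT calcipotriol library, passed in all 8 leave-one-out fits, and all 10 were also called with vehicle.

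Beside Sqstm1, Barx1 and Ebf3, the largest falls at the same minimum were in Elavl2, Pcdhb16, Pcdhgb6, Cck, Ccdc85a, Il1rl1 and Igf2. Elavl2, an RNA-binding protein of neurons, stood at 0.0758 and 0 CPM in p62KO and 6.66 and 7.95 CPM in WT cells, a ratio of WT over p62KO of 199 (54.5 to 1652). The peptide hormone gene Cck stood at 0.189 and 0.251 CPM in p62KO and 35.6 and 21.7 CPM in WT cells (-6.98 ± 0.821), and Ccdc85a at 0.379 and 0.358 CPM in p62KO and 23.4 and 30.3 CPM in WT cells (-6.16 ± 0.416). The protocadherins Pcdhb16 (-7.18 ± 0.728) and Pcdhgb6 (-7.12 ± 0.519) belong to clusters of near-identical genes, some with shared exons, so their values are uncertain. All 10 passed in all 8 leave-one-out fits, and Igf2 alone among them did not pass with vehicle (-2.53, adjusted p = 0.0653).

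The genes with the smallest interaction p came nearest to a dependence on calcipotriol, and none passed after adjustment. Map3k5, the stress kinase ASK1, stood at 5.11 and 4.33 CPM in p62KO and 22.7 and 22.9 CPM in WT cells with calcipotriol (-2.27 ± 0.315). With vehicle Map3k5 stood at 13.3 and 7.13 CPM in p62KO and 13.7 and 11.9 CPM in WT cells (-0.32), so the vehicle groups overlapped, and the difference between the settings was -1.95 (unadjusted p = 0.00165). Map3k5 lies on chromosome 10, whose median log2 fold change was -0.71 with calcipotriol and -0.64 with vehicle. Cyp1a1, an aryl hydrocarbon receptor target, was higher in p62KO cells in both settings: it stood at 3.79 and 4.08 CPM in p62KO and 1.67 and 0.871 CPM in WT cells with calcipotriol, and at 7.26 and 7.92 CPM in p62KO and 0.272 and 0.268 CPM in WT cells with vehicle (interaction -3.15, unadjusted p = 0.000718). Fry, a protein of cell division and shape, was also higher in both, at 3.41 and 3.36 CPM in p62KO and 0 and 0.0544 CPM in WT cells with calcipotriol and 2.19 and 3.27 CPM in p62KO and 0.272 and 0.469 CPM in WT cells with vehicle. The methyltransferase gene Inmt was lower in both, at 1.40 and 3.01 CPM in p62KO and 10.2 and 19.6 CPM in WT cells with calcipotriol, while with vehicle p62KO cells had no counts and WT cells 2.11 and 2.14 CPM.

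The other 6 genes of this kind did not pass with calcipotriol. Cd300lb, Ccdc85c and Hpx were lower in p62KO cells with vehicle (-2.68, -2.12 and -3.14), and changed by -0.19 ± 0.47, -0.12 ± 0.408 and -0.04 ± 0.591 with calcipotriol. Scel and Cdo1 were higher in p62KO cells with vehicle (3.94 and 1.90), against 0.89 ± 0.492 and -0.80 ± 0.437 with calcipotriol. The drug efflux pump gene Abcb1a stood at 2.39 and 1.5 CPM in p62KO and 7.18 and 7.24 CPM in WT cells with calcipotriol and at 11.6 and 2.01 CPM in p62KO and 1.49 and 1.54 CPM in WT cells with vehicle, and did not pass with vehicle either. Of these 10 genes, Map3k5 was the one that passed with calcipotriol and not with vehicle.

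**Figure D3:**
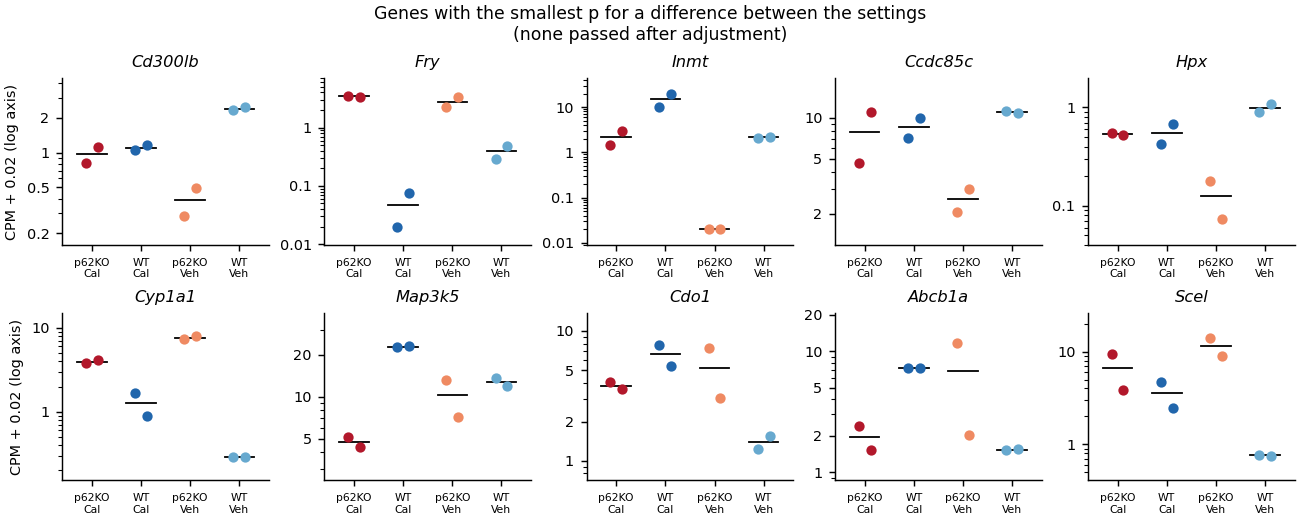
CPM plus 0.02 on a log axis for the 5 genes with the smallest interaction p in each direction, 1 point per library and a line at the group mean, with p62KO left of WT and calcipotriol left of vehicle. Map3k5 is about level between the vehicle groups and separate between the calcipotriol groups, and no gene shown passed after adjustment (smallest adjusted p = 0.708).

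Of 37 cell cycle genes, 5 rose and 3 fell (median 0.06), beside 19.8% called over all genes, with Cdc20, an activator of anaphase, at 187 and 276 CPM in p62KO and 107 and 110.0 CPM in WT cells (1.09 ± 0.213), Foxm1 at 0.74 ± 0.192, and the kinases Cdk4 (-0.88 ± 0.192), Cdk2 (-0.81 ± 0.196) and Cdk1 (-0.81 ± 0.21) lower; with vehicle 1 rose. These 3 kinase genes lie on chromosome 10, whose median log2 fold change was -0.71. Of 24 p53 targets, 5 rose and 3 fell (median 0.14), led by Gadd45a at 48.0 and 64.8 CPM in p62KO and 14.5 and 9.91 CPM in WT cells (2.21 ± 0.252), and with vehicle 8 rose and 1 fell (median 0.63). Of 26 NRF2 targets, 1 rose, Slc7a11, and 2 fell, the thioredoxin reductase Txnrd1 (-1.02 ± 0.2) and Nfe2l2 itself (-0.89 ± 0.197). Txnrd1 also lies on chromosome 10. Nqo1 (0.79 ± 0.316) and Hmox1 (-0.01 ± 0.244) did not pass. Of 30 autophagy and lysosome genes, the ubiquitin-like Atg12 fell (-1.19 ± 0.266). Of 30 genes of cholesterol and fatty acid synthesis, Srebf2 rose (0.86 ± 0.26) and Stard4 fell (-0.72 ± 0.196). Atg12 and Stard4 lie on chromosome 18, whose median was -0.48. Of 23 glycolysis and hypoxia genes, 4 rose and 4 fell (median 0.45). The lactate exporter Slc16a3 stood at 22.8 and 31.6 CPM in p62KO and 1.72 and 2.34 CPM in WT cells (3.74 ± 0.323), and the hypoxia-induced peptide gene Adm at 3.11 and 3.04 CPM in p62KO and 34.3 and 39.9 CPM in WT cells (-3.59 ± 0.602). Without WT calcipotriol replicates 1 and 2, the cell cycle count of 8 was 0 and 0, the p53 count of 8 was 4 and 1, and the glycolysis count of 8 was 2 and 1; without p62KO calcipotriol replicate 1 these were 21, 16 and 16. Without either WT vehicle library the cell cycle count was 1 and the p53 count 4. For NRF2, cholesterol and autophagy genes, the counts of 3, 2 and 1 were 10, 10 and 11 without p62KO calcipotriol replicate 1 and 0 when either WT calcipotriol library was left out; the NRF2 and cholesterol counts were 6 and 4 without either p62KO vehicle library, and the cholesterol count was 0 without p62KO calcipotriol replicate 2 or either WT vehicle library.

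Without both libraries that stood apart more members passed in most lists. That fit has 1 library in each p62KO group, so it holds no spread between p62KO replicates. The median log2 fold change with calcipotriol was then 0.74 for the collagens, -0.06 for the remodelling list and 0.09 for TGF-beta and BMP genes. It was -0.22 for growth factors, 0.24 for cytokines and -0.23 for Wnt genes. Cell cycle genes had a median of 0.02, p53 targets 0.37, glycolysis and hypoxia genes 0.12, and endoplasmic reticulum genes -0.07. Contractile genes kept their direction at a median of 0.63, as did the ATF4 list at 1.05 and developmental transcription factors at -0.42. Calls over all genes also rose in that fit, so the larger number of members that passed is not read as a result about the lists.

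**Figure D4:**
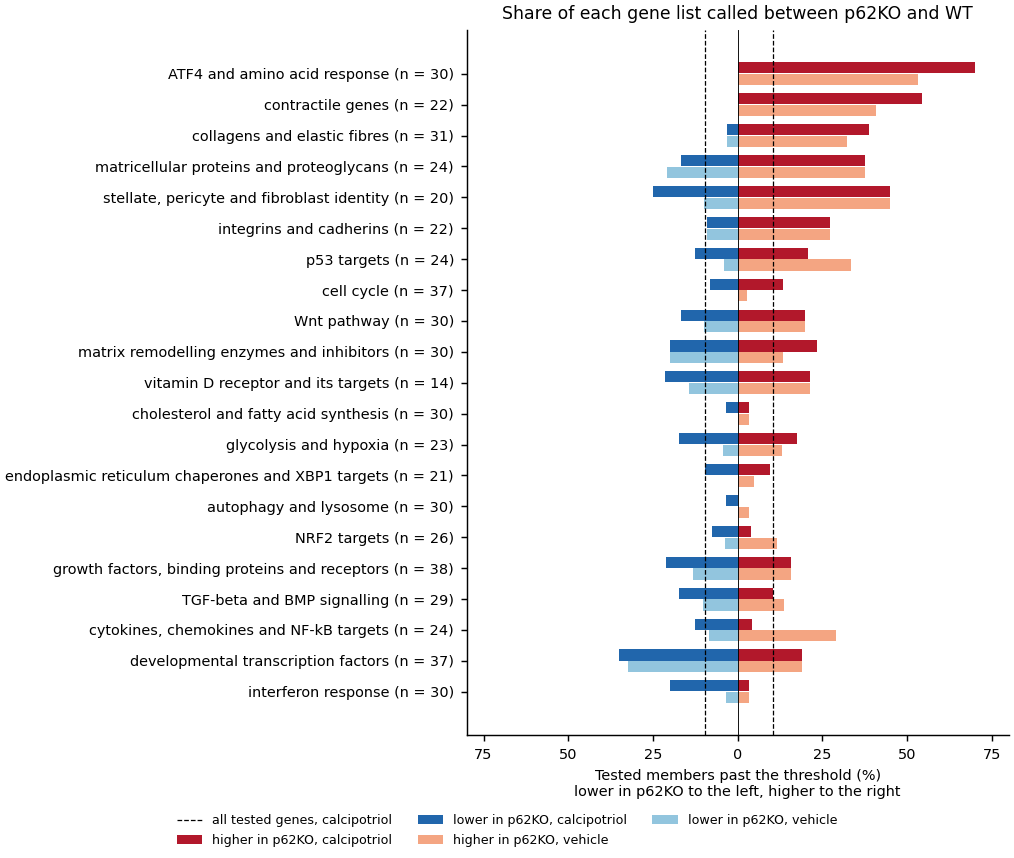
Share of tested members of each of the 21 pathway lists that passed, higher in p62KO to the right and lower to the left, with calcipotriol (dark bars) above vehicle (light bars); n is the number of tested members and dashed lines mark the shares over all tested genes with calcipotriol, 10.3% higher and 9.53% lower. The ATF4 list (21 of 30) and the contractile list (12 of 22) reach farthest to the right among these lists, and developmental transcription factors (13 of 37 lower) farthest to the left.

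The genotype difference was uneven along the chromosomes. Chromosome 10 had 625 tested genes, of which 252 fell and 17 rose in p62KO cells with calcipotriol, or 43%, against 19.8% of all genes, and their median log2 fold change was -0.71 with calcipotriol and -0.64 with vehicle. By library, its median stood at -0.62 and -0.61 for p62KO with calcipotriol relative to the WT calcipotriol mean, so both replicates carried it. Chromosome 4 (204 rose and 20 fell, median 0.43) and chromosome 15 (106 and 22, median 0.40) lay the other way, and chromosome 5 (20 rose and 154 fell, median -0.37) lay lower. Chromosomes 12, 14 and 18 had medians of -0.41, -0.49 and -0.48 with calcipotriol and -0.17, -0.20 and -0.19 with vehicle, and p62KO calcipotriol replicate 2 was farther from WT than replicate 1 on each. All 4 tested genes of Y fell. With the median of its chromosome removed from each gene, 1367 of 12681 tested genes passed with calcipotriol, against 2509 in the main fit. Of the 1367, 1116 were among the 2509, and the interaction again had 0. List counts in this fit stand beside the 1367. The counts became 13 higher and 0 lower for contractile genes, 23 and 0 for the ATF4 list, 1 and 2 for interferon-induced genes, and 1 and 0 for the cell cycle list. They became 4 and 2 for Wnt genes, 1 and 2 for the vitamin D receptor list, and 4 and 1 for p53 targets. NRF2 targets had 1 and 1, endoplasmic reticulum genes 1 and 0, and the cholesterol and autophagy lists 0 and 0. The cause of these chromosome-wide shifts was not tested.

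**Figure D5:**
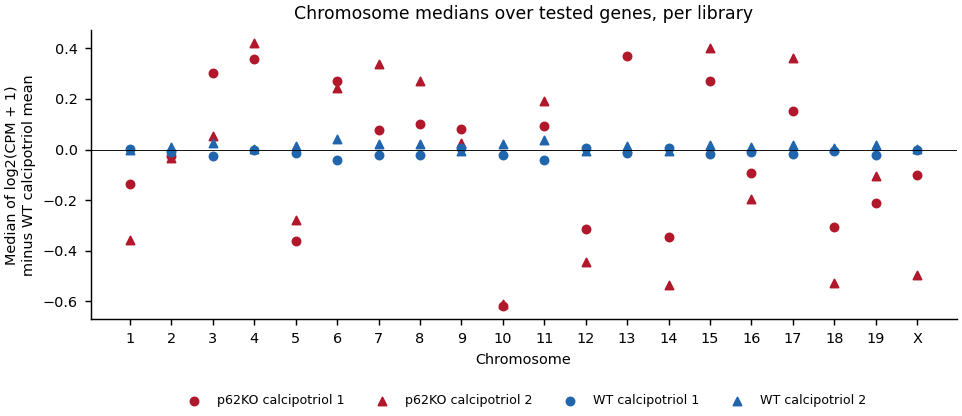
Median over tested genes of log2(CPM + 1) minus the mean of the WT calcipotriol libraries, for each chromosome and each of the 4 calcipotriol libraries. Both p62KO libraries lie near -0.6 on chromosome 10, while the WT libraries lie within 0.05 of 0 on every chromosome shown.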

How the data were processed

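Poly(A) RNA of 14 libraries was sequenced as 75-base single reads from a directional kit, per the labels' protocols; the 6 liver libraries were not used. The authors deposited a table of whole-number counts for the 8 stellate cell libraries (23420 gene rows). The genome build was mm10, per the submitters' processing notes. The aligner, the counter and whether counting used strand are not given in the sources used here, so overlapping and antisense genes could share counts. Library totals ranged from 15207117 to 29079258 counts.

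All 8 libraries were fitted together as 4 groups of 2 with edgeR 4.0.16 (quasi-likelihood test, TMM scaling, low genes removed with filterByExpr) in R 4.3.3. Contrasts were p62KO minus WT with calcipotriol, the same with vehicle, and their difference (the interaction), with Benjamini-Hochberg adjusted p under 0.05 over 12681 genes. CPM used TMM-scaled totals. The SE was taken from the log2 fold change and its F statistic. The scripts were tested on simulated data. A gene with no counts in a group was set against a limit of 3 counts over that group; this limit and the 95% intervals of ratios cover counting error only, since reads carried no molecular identifiers.

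The rule for named genes took Sqstm1, Vdr and Cyp24a1, the 10 largest rises and 10 largest falls with at least 5 CPM, the 3 smallest p in each list and the 5 smallest interaction p in each direction; other list members named were chosen after their values were seen. The 21 pathway and 7 marker lists, like the comparison, were chosen with earlier results of these data known. Gene positions matched GENCODE vM21 by symbol for 98.1% of rows, and 27 symbols that a spreadsheet had turned into dates were kept as rows but not named. Promoter letters are from RefSeq (GRCm38.p6). Alternatives were RLE scaling, DESeq2 1.42.0, no filter, a replicate block, thinning to 15207117 counts, removal of chromosome medians, the 4 calcipotriol libraries alone, a 2-fold minimum, leaving out each library, and leaving out both that stood apart.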

Additional observations from a re-analysis of the deposited data

How the results depend on the processing

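The count of 2509 genes with calcipotriol was 5606 without both libraries that stood apart, 1367 with chromosome medians removed, 1293 when the 4 calcipotriol libraries were fitted alone (fewer libraries to estimate the spread) and 1644 at a minimum of 2-fold. It lay between 2323 and 3355 under the other alternatives that kept every library. The vehicle count of 1634 was 5459 without both libraries that stood apart and 986 with chromosome medians removed. Leaving out 1 library at a time gave 272 to 6052 genes with calcipotriol, 238 to 3635 with vehicle, 0 to 2514 for the interaction and 0 to 1592 that met the rule for appearing only with calcipotriol; the cause was not tested. The interaction had 0 calls under every alternative that left out no library or both that stood apart. The calcipotriol changes of Cd300lb, Ccdc85c and Hpx (-0.19, -0.12 and -0.04, not called) changed sign in some fits: leaving out 1 library at a time gave -0.47 to 0.030 for Cd300lb, -0.87 to 0.37 for Ccdc85c and -0.34 to 0.33 for Hpx, and Ccdc85c was 0.29 with chromosome medians removed. With the replicate number as a block, 2323 genes passed with calcipotriol, 1377 with vehicle, 0 for the interaction and 0 for the rule. The labels give no shared source for same-numbered libraries, and groups of 2 allow no firm check. Replicate differences correlated at -0.066 between p62KO and WT with calcipotriol, 0.022 with vehicle, and between -0.19 and 0.462 over the 6 pairs of groups (0.462 for WT with calcipotriol and p62KO with vehicle). Thinning to the depth of the shallowest library gave 2379 genes with calcipotriol.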
